A study of Caenorhabditis elegans with 2 samples.

Results

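The regions described here are intronic candidate binding regions of UNC-62 that lie away from annotated promoters. They were taken from a list of 28005 candidate peaks called by the authors on 2 pooled replicates of a chromatin immunoprecipitation sequencing (ChIP-seq) experiment. A candidate was kept when its summit lay inside a protein-coding gene, in no exon of a protein-coding transcript, and outside every promoter, taken as 1000 bp upstream to 200 bp downstream of a protein-coding 5' end. This left 7200 candidates in 4313 host genes. The other 20805 candidates comprised 8077 at promoters, 6858 between genes and 5870 in exons.

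UNC-62 is the Caenorhabditis elegans member of the MEIS and Homothorax group of homeodomain transcription factors. Proteins of this group bind DNA together with PBC and Hox homeodomain proteins, and in the worm UNC-62 is known for roles in cell migration, vulval development and intestinal gene expression. Most introns of this nematode are very short, and the long ones can hold enhancers or the start sites of shorter transcripts. Many worm transcripts are trans-spliced, so an annotated 5' end can lie downstream of the place where transcription starts.

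The experiment had 1 group of worms and 2 biological replicates, from separate biosamples. All animals were whole L2 larvae of strain OP600, which carries the unc119 allele ed3, and their sex was recorded as males and females pooled. All animals also carried the integrated transgene wgIs600, a fusion of unc-62 to TY1, EGFP and FLAG tags that also holds unc119 sequence, and no animals without the transgene were analysed here. Since all tissues were sampled at once, a region bound strongly in a few cells and one bound weakly in many cannot be told apart.

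The authors gave each peak a signal value, made against a control library that was not analysed here. As the lists are not on a common scale, the signal served only to order the peaks of 1 list. The authors further deposited an optimal set of 414 peaks, chosen for reproducibility by an irreproducible discovery rate procedure, and these were the pooled candidates with the 414 highest signals. Intronic candidates in that set are called optimal members below. Read depth is unknown, so no interval here covers read counting. By its description the transgene holds sequence of 2 loci with intronic candidates, none of them optimal. There were 1 in unc-62 (signal 11.6) and 3 in unc-119 (highest signal 19.5). Which bases of these loci the transgene holds, and whether it holds neighbouring genes, was not examined.

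The sequence at the 8 optimal members with the highest signal is shown to give examples of the motifs counted further on, which 6 of these 8 regions held. Each line gives up to 75 bp on each side of the summit, cut at the peak's own ends, on the plus strand of build ce11 (WBcel235, RefSeq sequence), 5' to 3'. Capitals mark GAGAGA, the MEIS core TGACAG, and CTGCGTCTC, on either strand.
Y111B2A.12 chrIII:12612595-12612737: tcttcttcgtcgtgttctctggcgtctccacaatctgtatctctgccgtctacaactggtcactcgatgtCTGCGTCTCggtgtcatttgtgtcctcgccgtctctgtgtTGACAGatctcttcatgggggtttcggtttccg
zfp-1 chrIII:8795817-8795967: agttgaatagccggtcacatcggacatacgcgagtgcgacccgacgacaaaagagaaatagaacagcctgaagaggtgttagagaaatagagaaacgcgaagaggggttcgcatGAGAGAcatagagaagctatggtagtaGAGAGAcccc
pqn-41 chrIII:1925321-1925471: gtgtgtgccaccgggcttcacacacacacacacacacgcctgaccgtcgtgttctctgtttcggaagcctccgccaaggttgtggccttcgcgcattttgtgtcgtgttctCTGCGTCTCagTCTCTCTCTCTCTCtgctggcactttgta
mom-1 chrX:6296532-6296682: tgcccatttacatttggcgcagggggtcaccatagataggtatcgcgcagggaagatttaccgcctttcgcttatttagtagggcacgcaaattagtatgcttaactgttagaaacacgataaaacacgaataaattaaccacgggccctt
Y41G9A.17 chrX:2996981-2997131: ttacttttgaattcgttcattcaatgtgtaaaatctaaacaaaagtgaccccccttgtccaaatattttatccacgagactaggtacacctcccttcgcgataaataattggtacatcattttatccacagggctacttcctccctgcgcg
W06H8.6 chrV:6224608-6224758: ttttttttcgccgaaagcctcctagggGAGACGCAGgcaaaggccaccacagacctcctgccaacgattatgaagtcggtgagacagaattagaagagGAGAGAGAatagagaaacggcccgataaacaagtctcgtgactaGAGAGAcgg
epg-9 chrIV:2602094-2602244: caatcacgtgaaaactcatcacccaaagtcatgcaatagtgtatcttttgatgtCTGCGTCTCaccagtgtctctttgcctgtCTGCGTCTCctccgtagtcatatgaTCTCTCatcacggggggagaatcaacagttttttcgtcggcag
vhp-1 chrII:5330249-5330399: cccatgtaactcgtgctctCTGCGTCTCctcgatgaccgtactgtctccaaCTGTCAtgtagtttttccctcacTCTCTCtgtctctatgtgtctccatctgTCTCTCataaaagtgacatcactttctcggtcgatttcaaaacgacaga
The strongest region, in Y111B2A.12, held 1 CTGCGTCTC and 1 TGACAG in its printed stretch. The GAGAGA counted for it further on, within 100 bp of the summit, lay at least partly outside that stretch. The region in epg-9 held 2 copies of CTGCGTCTC, and those in pqn-41, W06H8.6 and vhp-1 held 1 each. The pqn-41 region also held an unbroken GA repeat with 5 overlapping copies of GAGAGA, and the zfp-1 region held 2 separate copies. The regions in mom-1 and Y41G9A.17 held none of the 3 motifs.

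Intronic candidates were found in the optimal set less often than the other candidates. The optimal set held 64 of the 7200 members, or 0.889% (exact 95% interval 0.685 to 1.13), against 350 of the other 20805 (1.68%, 1.51 to 1.87) and 1.48% of all pooled candidates. Promoter candidates stood at 2.66%, intergenic ones at 1.82% and exonic ones at 0.170%, so introns lay between exons and intergenic sequence. The intervals of members and others did not overlap, but candidates of 1 experiment are not replicates, and with a single group no test across conditions was possible. The median signal was 8.94 for members (95% interval 8.88 to 9.01), with values from 6.74 to 174, and 9.05 for the other candidates (9.01 to 9.10). Introns made up 15.5% of pooled ranks 1 to 414 and 17.9% of ranks 415 to 828. At ranks 829 to 5000 their share was 23.2%, and in the 3 lower classes it was 26.0% to 26.8%.

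**Figure D1:**
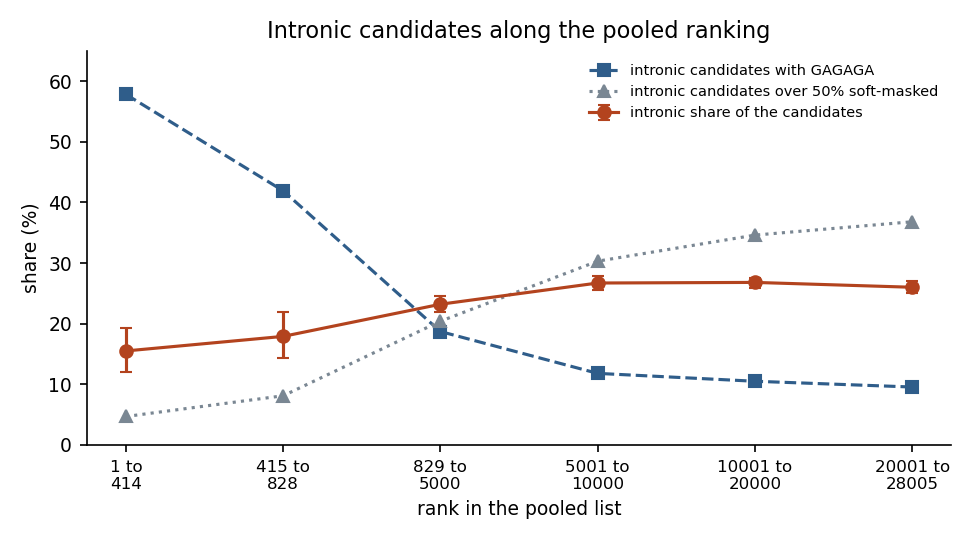
Intronic candidates along the pooled ranking by signal. The horizontal axis gives rank classes and the vertical axis a share in percent: the intronic share of all candidates (circles, exact 95% intervals), the share of intronic candidates with GAGAGA within 100 bp of the summit (squares) and the share with over 50% soft-masked bases (triangles). The GAGAGA share was 57.8% in the highest class and 9.55% in the lowest, and the soft-masked share was 4.69% and 36.8%.

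The 64 optimal members had signals from 28.6 to 174 with a median of 39.6. They lay in 57 introns of 54 genes. The last optimal members by rank were in sue-1 (rank 390, signal 29.0), fozi-1 (398, 28.7) and pqn-62 (400, 28.6). The first members outside the set were in Y53G8AM.8 (rank 418, signal 28.2), daf-12 (424, 28.0) and fasn-1 (429, 28.0). The signals just inside and just outside the set thus differed little. At the edge of the location rule, 517 members lay within 200 bp of the downstream limit of a promoter and 171 within 200 bp of the upstream limit.

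Optimal members are described first in genes for regulators of transcription and chromatin. This grouping, like those of the next 2 paragraphs, was made after the signals were seen and is no sign that such genes are frequent hosts. Counts over lists of genes, also written with earlier results known, are given further on. In zfp-1, which encodes a PHD zinc finger protein related to human AF10, there were 2. The stronger one (chromosome III 8795724 to 8796059) had a pooled signal of 107 and ranked 15 in replicate 1 and 5 in replicate 2. The second (8800019 to 8800354, signal 62.0) ranked 40 and 170. In let-526, for an ARID subunit of the SWI/SNF chromatin remodelling complex, there were 3, with signals of 56.9, 34.7 and 30.1. The first 2 of these were among the 414 highest peaks of each replicate, while the weakest ranked 642 in replicate 1 and 111 in replicate 2. In egl-27, for a chromatin protein related to MTA1, a region with signal 55.6 ranked 157 and 44, and another with signal 33.1 ranked 158 in replicate 1 and overlapped no candidate of replicate 2. The nuclear hormone receptor gene nhr-19 held a region with signal 60.7, ranked 64 and 133 in the replicates. The forkhead gene fkh-7 held one with signal 39.9, ranked 225 and 348. In mef-2, for a MADS box factor, a region with signal 42.9 ranked 166 in replicate 1 and 567 in replicate 2. In nhr-14 one with signal 43.3 ranked 85 and 532.

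Further optimal members lay in genes for signalling proteins. The strongest of them was in mom-1, for the Porcupine-type acyltransferase that Wnt proteins need for secretion. Its region (chromosome X 6296439 to 6296774, signal 82.2) ranked 21 in replicate 1 and 32 in replicate 2, and it lay 114 bp from the edge of the last of 7 introns. In cam-1, for a ROR-type Wnt receptor, a region with signal 35.9 ranked 269 and 326. In vhp-1, for a phosphatase of MAP kinases, a region with signal 62.8 ranked 42 and 110, and in mnk-1, for a MAP kinase interacting kinase, one with signal 41.7 ranked 257 and 94. In unc-43, for calcium and calmodulin dependent kinase II, a region with signal 30.1 ranked 284 and 241. Genes were named here partly for regions among the 414 highest peaks of both replicates, so high ranks in both are set by that choice. Support from 1 replicate was weaker in pkg-2, for a cGMP-dependent protein kinase, where 1 region ranked 79 in replicate 1 and 813 in replicate 2 and the other 245 and 1016. The akap-1 region, in a gene for an anchoring protein of protein kinase A, ranked 866 and 366.

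Optimal members also lay in 5 genes of dauer entry and developmental timing. The dauer pathway controls whether larvae enter an arrested, stress-resistant stage. In daf-14, for a Smad protein of that pathway, a region with signal 48.8 ranked 122 in replicate 1 and 262 in replicate 2. In daf-5, for a Sno/Ski-type partner of the Smads, the ranks were 63 and 5064, and in daf-16, for the FOXO factor of insulin signalling, 294 and 1678, so support for these 2 from replicate 2 was far weaker. In lin-42, for a protein of the Period family that times larval development, a region with signal 43.5 ranked 199 and 167. In kin-20, for a casein kinase 1 of the Doubletime type, one with signal 34.7 ranked 217 and 185.

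The remaining genes of the top 25 members covered varied functions. The highest signal of all, 174, lay in Y111B2A.12 (chromosome III 12612587 to 12612737), at rank 1 in each replicate with replicate signals of 115 and 57.8. It was the only member narrower than the common width of 336 bp. Further members of both replicates' 414 highest peaks lay in epg-9 (an autophagy gene related to ATG101, signal 64.3), gei-4 (57.1), spop-1 (a ubiquitin ligase adaptor of the speckle POZ type, 56.7), catp-7 (a cation transporting ATPase, 53.2), F09A5.3 (53.0), Y41G9A.17 (71.1), W06H8.6 (68.7) and Y43F8B.2 (42.7). Regions in pxn-1, for a peroxidasin (49.6), and T28B11.1 (46.4) ranked 72 and 81 in replicate 1 but 1830 and 1453 in replicate 2. Weaker optimal members in both top lists lay in eat-16, for a regulator of G protein signalling, and in F55A11.6, C08D8.1, C09G9.1 and K10C3.4, with signals from 29.4 to 39.0.

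The optimal set was chosen by the authors for reproducibility and held the 414 highest pooled signals. How that procedure used the 2 replicates is unknown. It did not require a listed candidate in each, since some optimal members overlapped none of replicate 2. The higher overlap of the set with the replicates is a description only, because its pooled signals draw on the reads of both. Each replicate list held 30000 candidates, and an overlap of at least 1 bp was counted. All 64 optimal members overlapped a candidate of replicate 1 and 60 overlapped one of replicate 2. Among the 7136 other members, 65.9% overlapped replicate 1, 52.2% replicate 2 and 28.5% both. Over all members the shares were 66.2% for replicate 1 (67.4% of all pooled candidates) and 52.5% for replicate 2 (53.7% of all). Both replicates were overlapped by 2097 members (29.1%, 28.1 to 30.2), against 31.5% of the other candidates and 30.9% of all, and 746 members (10.4%) overlapped neither. The pooled calls include the reads of both replicates, so this overlap is not independent of the pooled rank.

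Within each replicate's 414 highest peaks, the members overlapped 78 times for replicate 1 (1.08%, against 1.62% of all candidates) and 79 times for replicate 2 (1.10%, against 1.63%). For both together the count was 37 (0.514%, against 0.884% of the other candidates and 0.789% of all). Of these 37, 33 were optimal, in 28 genes. The other 4, in zfp-1, K01F9.2, F09A5.3 and spop-1, each overlapped a neighbouring pooled peak, as did 578 members in all (8.03%). More optimal members were in the top list of replicate 1 than of replicate 2: 57 of 64 (89.1%, 78.8 to 95.5) against 39 (60.9%, 47.9 to 72.9). For the 350 optimal peaks outside introns the shares were 79.1% and 60.0%, so a gap between replicates was seen there too. The optimal member of sue-1 was in neither top list, with ranks 524 and 1114. Those without any candidate in replicate 2 lay in ugt-65, egl-27, unk-1 and fozi-1. Across the 60 optimal members found in both replicates, the Spearman correlation of the replicate signals was 0.34, and it was 0.35 across 347 optimal peaks elsewhere. Across the 2097 members it was 0.19 and across 6545 other candidates 0.25. These are descriptions across peaks that share the same 2 libraries.

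**Figure D2:**
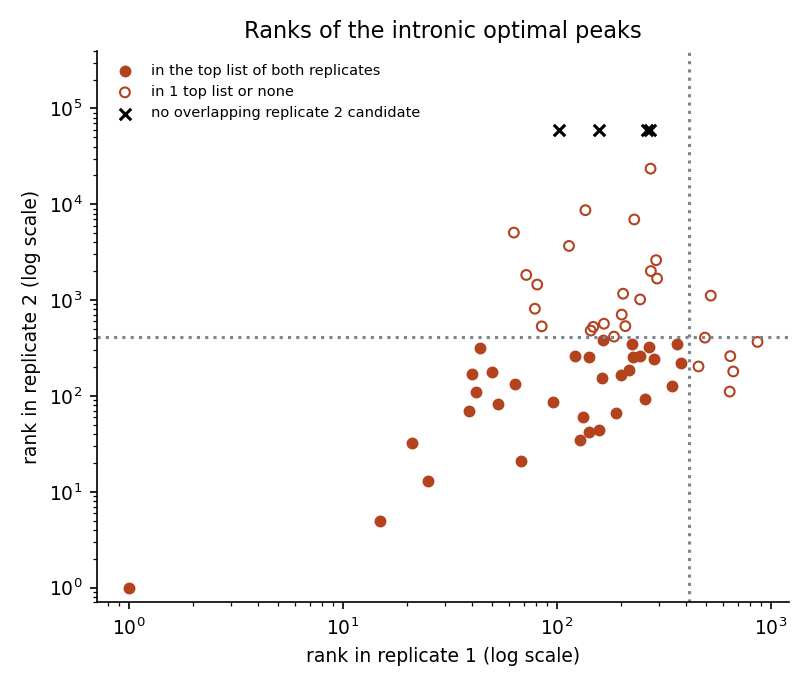
Ranks of the 64 optimal members in the candidate lists of replicate 1 (horizontal axis) and replicate 2 (vertical axis), both on log scales, where 1 is the highest signal. Dotted lines mark rank 414. Filled circles are the 33 members in the top lists of both replicates, open circles the others with a rank in both, and crosses, drawn at a fixed height that is no rank, the 4 with no overlapping candidate in replicate 2.

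Optimal members lay in long introns. An intron was measured as the gap between merged protein-coding exons of the host. The median host intron was 3730 bp for optimal members (95% interval 2377 to 5374), 886 bp for members outside the optimal set (862 to 919), and 81 bp for all introns that contain bases open to the rule. Introns over 2000 bp held 43 of the 64 optimal members (67.2%, 54.3 to 78.4) and 29.7% of the other members (28.7 to 30.8). Introns over 5000 bp held 26 (40.6%, 28.5 to 53.6) and 14.1%. The shortest intron with an optimal member had 267 bp, in frm-7, and the longest had 17091 bp, in T28B11.1.

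Longer introns offer more bases, so densities were computed over the 27.2 Mb of intronic sequence open to the rule. There were 264 members and 2.36 optimal members per Mb. The density of all members ran from 220 per Mb in introns of 1001 to 2000 bp to 334 per Mb in those over 5000 bp, with 277 per Mb in those of up to 200 bp. Optimal members numbered 8.43 per Mb in introns over 5000 bp (exact Poisson 95% interval 5.51 to 12.4) and 3.95 per Mb in those of 2001 to 5000 bp (2.30 to 6.33). In the 3 classes from 201 to 2000 bp there were 0.771 to 1.73 per Mb. In introns of up to 200 bp none of 940 members was optimal, and the exact 95% interval reaches 0.392%. A peak of the common width is wider than such an intron and reaches into the exons beside it. Summits lay a median distance from the closer intron edge of 1070 bp for optimal members and 188 bp for the other members. The whole peak lay within the intron for 84.4% of optimal members and 53.1% of the others.

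**Figure D3:**
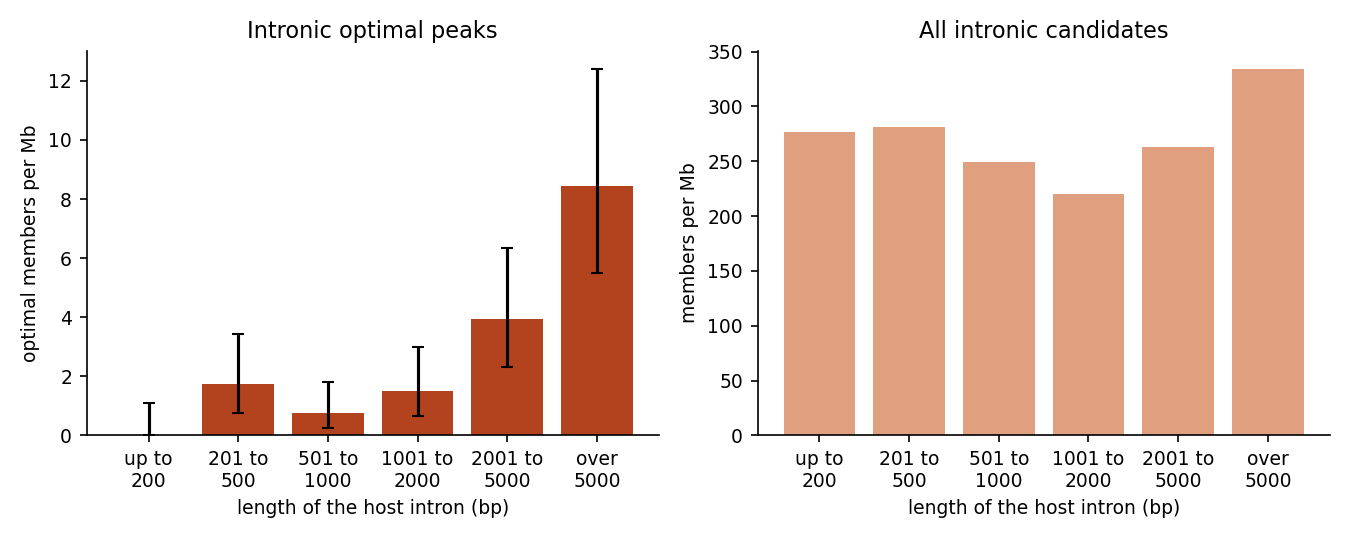
Density of intronic optimal peaks (left, with exact Poisson 95% intervals) and of all intronic candidates (right) by length of the host intron. Bars give numbers per Mb of intronic sequence outside exons and promoters. Optimal members reached 8.43 per Mb in introns over 5000 bp, against 2.36 per Mb over all introns, while all members ranged from 220 to 334 per Mb.

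First introns held 21 of the 64 optimal members (32.8%, 21.6 to 45.7), 22.4% of the other members and 19.9% of the open bases. With the longest intron of any transcript in place of the gap between merged exons, 33 of the 64 (51.6%, 38.7 to 64.2) and 30.6% of all members lay in a first intron. The first-intron share of open bases was not computed under that definition, so these shares have no background to be read against. Optimal members reached 3.88 per Mb in first introns (2.40 to 5.94), against 1.84 in the second, 1.45 in the third and 2.15 in later introns, with overlapping intervals. Among introns over 5000 bp the densities of first and later introns were 8.28 and 8.55 per Mb. Among introns of 2001 to 5000 bp they were 7.91 (3.61 to 15.0) and 2.53 (1.09 to 4.99). Both sides of the intron midpoint held similar numbers: 56.2% of optimal members (43.3 to 68.6) and 51.4% of the others lay on the side nearer the host's 5' end. The 5th and 95th percentiles of position along the intron were 14.3% and 85.2% for optimal members and 5.09% and 94.3% for the others. By chromosome the density of members was 328 per Mb on X and 242 to 269 per Mb on the autosomes. Optimal members stood at 2.40 per Mb on X (1.20 to 4.30) and 1.96 to 2.69 per Mb on the autosomes. With 11 optimal members on X, whether they share the higher density there cannot be told.

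Several optimal members lay upstream of an inner start site of their own host. The host was the gene with the nearest protein-coding 5' end for 89.1% of optimal members and 83.5% of the others. Among optimal members the exceptions included the regions in mom-1 (nearest end of cest-16) and eat-16 (ceh-5) and the weaker region in zfp-1 (F54F2.6). The rest of the exceptions lay in frm-7, C08D8.1, rol-3 and fozi-1. For 18 optimal members (28.1%, 17.6 to 40.8) the nearest end was one of the host's own, lying downstream of the summit, against 10.5% of the other members (9.78 to 11.2). The distances ran from 1056 to 7593 bp with a median of 1826 bp, and the lower limit is set by the promoter rule. The 16 hosts comprised the dauer genes daf-14, daf-5 and daf-16, the timing genes lin-42 and kin-20, cam-1, vhp-1, unc-43, fkh-7, gei-4, pqn-41, nova-1 (an RNA-binding protein gene), gpcp-2, T28B11.1, T28F4.1 and F55A11.6. Such members sit in long introns, with a median of 7000 bp against 2328 bp for the other 46 optimal members. Within introns over 5000 bp the shares were 12 of 26 optimal members (46.2%) and 36.7% of the other members, and within 2001 to 5000 bp they were 6 of 17 (35.3%) and 23.1%. In introns of up to 2000 bp they were 0 of 21 and 2.12%. Whether transcription starts at these ends in L2 larvae was not tested.

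Most hosts held a single member. Of the 17305 protein-coding genes with open intronic bases, 4313 (24.9%) hosted a member and 54 (0.312%) an optimal one. Of the 4313, 2940 (68.2%) held 1 member and 28 held 10 or more. The share of genes with a member was 5.90% for those with up to 500 open bases and 96.3% for those with over 10000. The optimal share was 0 and 3.71% in the same classes. A long gene thus had many chances to be a host, and the share of hosts was higher in each class of more intronic bases.

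The genes with the most members had mostly weak ones. The nuclear hormone receptor gene daf-12, which links hormone signals to dauer entry and larval timing, held 16, of which 9 overlapped both replicates and none was optimal (highest signal 28.0). The receptor phosphatase gene ptp-3 held 14 and the Ras pathway genes gap-2 and sos-1 held 13 each, as did the cadherin gene hmr-1, with none optimal and highest signals from 10.6 to 16.7. In ppfr-1, for a regulatory subunit of protein phosphatase 4, 2 of 14 members were optimal, and 11 overlapped both replicates. In T28B11.1, 13 members shared the first intron of 17091 bp, 2 of them optimal and 9 overlapping both replicates.

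The intron with the most optimal members lay in pqn-41, which encodes a glutamine-rich protein known for its part in the death of the male linker cell. Its intron 15 (chromosome III 1919901 to 1927670, 7770 bp) held 4 members, and all 4 were optimal and in the top lists of both replicates. Their signals were 85.6, 53.4, 36.5 and 35.1, and their summits spanned 5118 bp. Their ranks ran from 25 to 244 in replicate 1 and from 13 to 258 in replicate 2. Only 4 other introns held 2 optimal members each, in let-526, ppfr-1, T28B11.1 and pkg-2. The pair in ppfr-1 had summits 840 bp apart and the pair in let-526 1291 bp apart.

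**Figure D4:**
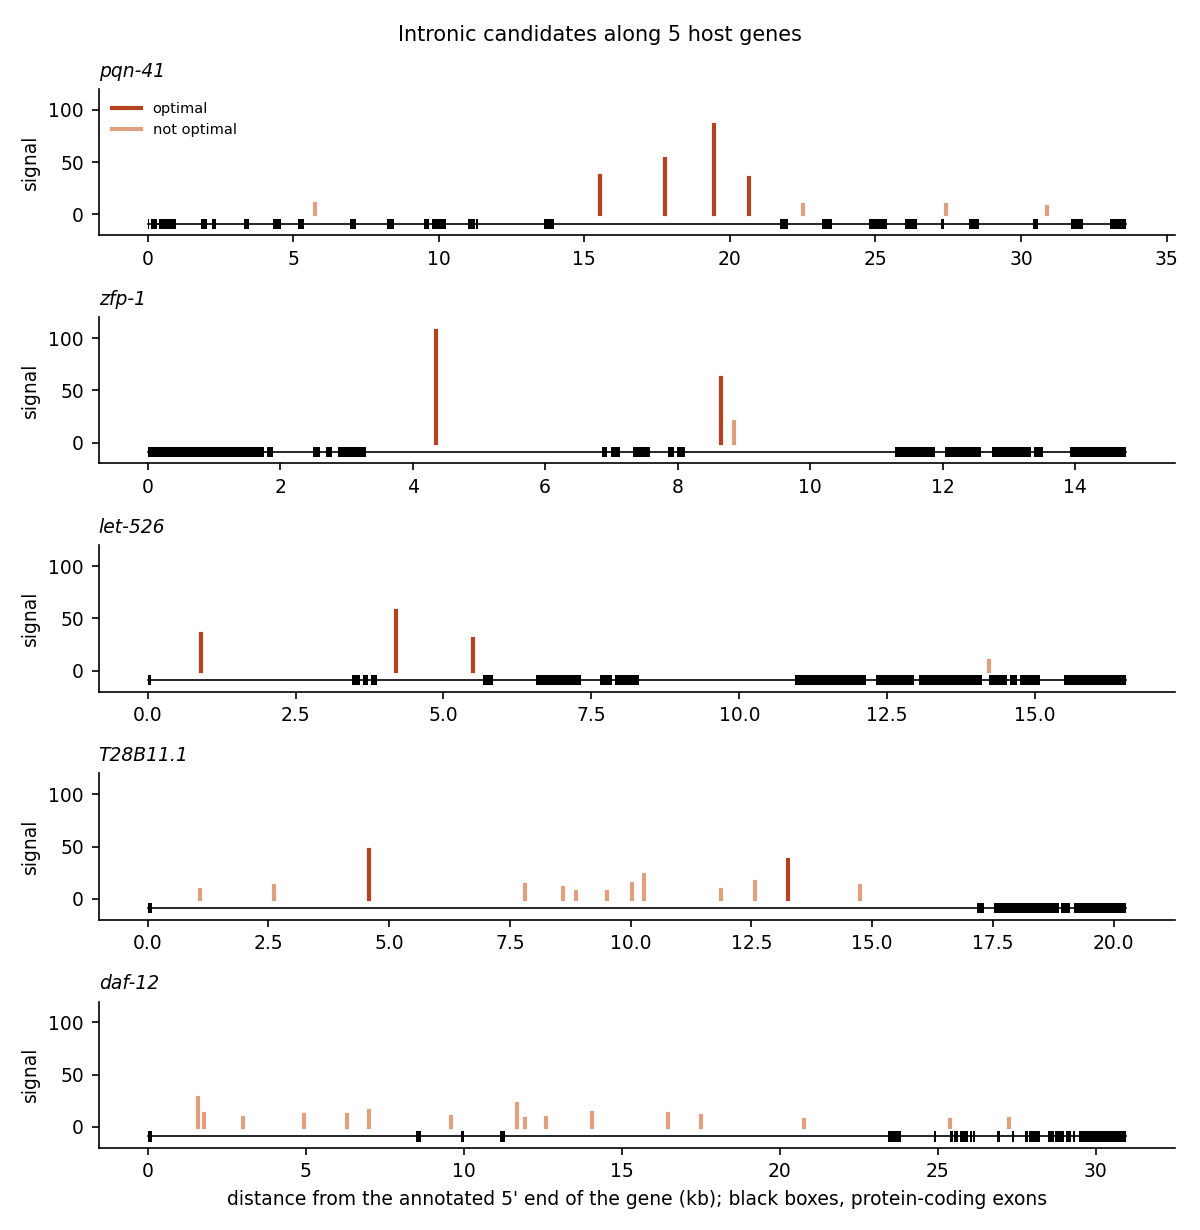
Members along 5 host genes, each drawn from the annotated 5' end of the gene (kb, left to right in the direction of transcription). Vertical lines give the pooled signal at each summit, dark for optimal members and light for the others, and black boxes are protein-coding exons. The pqn-41 panel shows 4 optimal members in 1 intron, zfp-1 has 2 and let-526 3, T28B11.1 has 13 members in its first intron and daf-12 16 members, none of them optimal.

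Motifs were searched within 100 bp of the summit on both strands. GAGAGA occurred in 37 of 64 optimal members (57.8%, 44.8 to 70.1), 11.9% of the other members (11.1 to 12.7), 49.4% of optimal peaks outside introns and 7.90% of 103822 windows of 201 bp tiled over the open intronic sequence. Along the ranking of members its share was 41.9% at ranks 415 to 828 and 9.55% below rank 20000. TGACAG, the core bound by MEIS proteins, occurred in 11 of 64 (17.2%, 8.90 to 28.7), 7.44% of the other members (6.84 to 8.07), 10.6% of optimal peaks outside introns and 5.62% of windows. It occurred in 5 of the 46 optimal members left when promoters were widened to span 2000 bp upstream and 500 bp downstream (10.9%, 3.62 to 23.6) and in 8 of 70 top members from the list of replicate 2 alone (11.4%, 5.07 to 21.3), and both of these intervals include the share of the other members. Hosts with TGACAG included Y111B2A.12, vhp-1, daf-14, mef-2 and daf-16. TGATNNAT, a spaced form of the sites of PBC and Hox proteins, occurred in 17.2% of optimal members, 15.6% of the others and 12.9% of windows, and TGATAA, which factors of the GATA family bind, in 10.9%, 17.0% and 16.0%. These last 2 motifs had intervals for optimal members (8.90 to 28.7 and 4.51 to 21.2) that included the share of the other members. The PBC and GATA motifs can share bases.

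CTGCGTCTC was chosen after it was seen to recur in the sequences printed above. It occurred in 14 of 64 optimal members (21.9%, 12.5 to 34.0), 1.29% of the other members (1.04 to 1.58), 19.4% of optimal peaks outside introns and 0.984% of the tiled windows. The share was 12.9% (9 of 70, 6.05 to 23.0) for top members from the list of replicate 2 alone and 14.1% (9 of 64) within 50 bp of the summit. Without the 8 printed regions the count was 9 of 56 (16.1%, 7.62 to 28.3). The 13 host genes were Y111B2A.12, pqn-41, W06H8.6, epg-9, vhp-1, spop-1, lin-42, Y43F8B.2, ldb-1, nhr-3, rol-3, sulp-3 and unc-43. GAGAGA was present in 11 of the 14 as well, and the 2 motifs can share bases, since the reverse strand of CTGCGTCTC begins with part of a GA repeat. TGACAG was present in 2 of the 14. A match describes the letters only and shows no binding of a given protein.

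**Figure D5:**
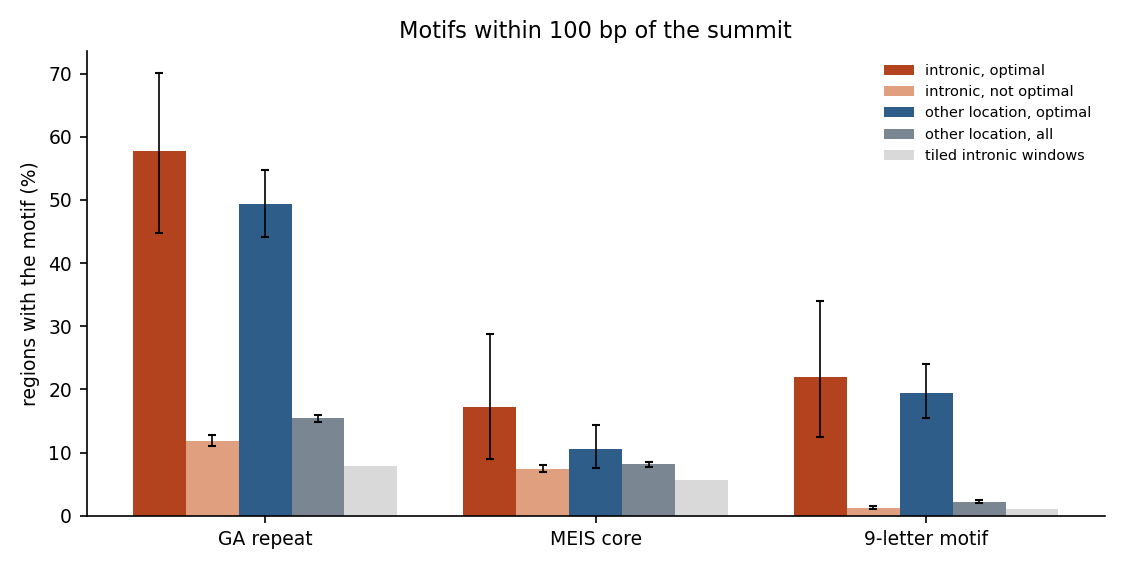
Share of regions with a motif within 100 bp of the summit (vertical axis, percent). From left to right within each group the bars are intronic optimal peaks, other intronic candidates, optimal peaks elsewhere and all candidates elsewhere (exact 95% intervals), and tiled intronic windows. The GA repeat is GAGAGA (57.8% of intronic optimal peaks), the MEIS core TGACAG (17.2%) and the 9-letter motif CTGCGTCTC (21.9%).

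Base composition differed along with these motifs. GC content within 100 bp was 46.2% ± 6.05 in optimal members (SD, n = 64 peaks), 34.6% ± 7.15 in the other members (n = 7136), 44.7% ± 6.77 in optimal peaks outside introns (n = 350) and 32.7% ± 7.54 in the windows. Over 50% of bases were soft-masked as repetitive in the reference genome in 4.69% of optimal members, 32.2% of the other members, 4.86% of optimal peaks outside introns and 52.7% of windows. In both measures optimal members lay close to the optimal peaks outside introns. For all candidates outside introns the soft-masked share was 15.3%. The part of base composition in the motif shares was not tested.

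Non-coding RNA genes lay close to many optimal members. Genes of the class ncRNA lay within 500 bp of 20 of 64 summits (31.2%, 20.2 to 44.1), of 9.46% of the other members (8.79 to 10.2) and of 22.3% of optimal peaks outside introns. Genes for snoRNAs, which guide modification of ribosomal and other RNAs, lay near 5 optimal members (7.81%, 2.59 to 17.3), in pxn-1, frm-7, C08D8.1, rol-3 and inx-11, near 0.659% of the other members and near 2.00% of optimal peaks outside introns (0.808 to 4.08), an interval that overlaps that of optimal members. The introns in pxn-1, frm-7, C08D8.1 and rol-3 had 341, 267, 303 and 392 bp, shorter than most introns with an optimal member. The F09A5.3 region lay 329 bp from mir-54 and 499 bp from mir-55, and the sulp-3 region 105 bp from a tRNA gene. The summit lay in an exon of a transcript that is not protein-coding for 9 optimal members (14.1%), for 3.34% of the other members and for 10.9% of optimal peaks outside introns. Those 9 are thus intronic only with respect to protein-coding transcripts.

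Lists of genes by function were read against the 24.9% of genes that host a member and the 0.312% that host an optimal one. The lists were written with earlier results of these data known, so their shares are descriptions only. Among neuronal and synaptic genes 28 of 32 were hosts (87.5%), with 1 optimal member, in unc-43. The list has a median of 4.96 kb of open intronic bases a gene, against 0.685 kb for all genes, and 303 members per Mb against 264. Axon guidance and cell migration genes had 24 hosts of 38 (408 members per Mb), of which mig-10, for a lamellipodin-type adaptor, held an optimal member (signal 29.6, ranks 646 and 260). Next in that list were the netrin gene unc-6 (21.5), its receptor gene unc-40 (21.2) and the ankyrin gene unc-44 (21.0). Body wall muscle genes had 24 hosts of 35, led by the myosin heavy chain genes myo-3 (18.7) and unc-54 (18.5), and none was optimal. The axon guidance and muscle lists had medians of 3.64 and 2.13 kb of open bases a gene, and the muscle list had 385 members per Mb.

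Heterochronic genes, which time larval development, had 523 members per Mb, the highest of the 13 lists, with 39 members in 7 of 14 genes. Most of the 39 lay in a few loci: daf-12 held 16, lin-14 10 and lin-42 7. Both daf-12 and lin-14 are on X, where members over all genes stood at 328 per Mb. The optimal host was lin-42, followed by daf-12 (28.0), the nuclear protein gene lin-14 (24.5) and the zinc finger gene lin-29 (15.0). The list does not hold kin-20, described above as a timing gene. TALE and Hox genes had 16 members in 6 of 12 genes, 490 per Mb, and no optimal one. Of the 16, lin-39 held 7 and mab-5 held 5. The Hox genes mab-5 (17.4) and lin-39 (14.9), the Iroquois gene irx-1 (13.2) and unc-62 itself (11.6) led that list. Both lists are small in bases, with 74.6 and 32.7 kb in all. Insulin and dauer genes had 8 hosts of 19, near the background density at 280 per Mb. Their 3 optimal hosts (15.8%) were daf-14, daf-5 and daf-16, followed by the insulin receptor gene daf-2 (15.7). The genes daf-5 and daf-16 have 15.4 and 18.9 kb of open bases. Of all genes with over 10000 open bases, 3.71% hosted an optimal member. Wnt pathway genes had 15 hosts of 29 and 2 optimal hosts, mom-1 and cam-1, followed by the kinase gene lit-1 (18.3) and the Dishevelled gene dsh-1 (15.5). The Wnt list had a median of 1.88 kb of open bases a gene and 397 members per Mb, against 0.685 kb and 264 for all genes.

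The epidermal, vulval and intestinal lists had no optimal host. Since only 0.312% of all genes hosted an optimal member, lists this short cannot show an absence. The same holds for the muscle list, the TALE and Hox list and the ceh list. Epidermal genes had 13 hosts of 20, led by the junction gene ajm-1 (26.9). Vulval and LIN-12 signalling genes had 17 of 26, led by the MAP kinase gene mpk-1 (18.4), and intestinal genes 5 of 16, led by nhr-80 (11.8). The epidermal and vulval lists had medians of 2.23 and 3.40 kb of open bases a gene, against 0.685 kb for all genes. Their densities were 289 and 285 members per Mb, against 264. Of all genes with 2001 to 5000 open bases, 52.8% hosted a member. Chromatin regulators had 7 hosts of 27 (25.9%), and 1 optimal host (3.70%), zfp-1, followed by jmjd-3.1 (9.76). The list does not hold let-526 and egl-27, described above. Nuclear hormone receptor genes had 63 hosts of 264 (23.9%) and 3 optimal hosts (1.14%), nhr-19, nhr-14 and nhr-3. Homeobox genes with a ceh name had 12 of 63 (19.0%), none optimal.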

How the data were processed

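ChIP-seq of tagged UNC-62 in L2 larvae was analysed from deposited peak lists (narrowPeak form, build ce11). Per the labels and accompanying notes, the authors called candidates with background peaks for each of 2 replicates and for both pooled, each against a control, and made an optimal set. The signal value of each peak is the authors' own, as deposited, on a scale not given in the sources used here, as are the aligner, peak caller, threshold of the optimal set, antibody and read depth. Lists on build ce10 were not used.

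Summits (start plus the deposited offset, printed counting from 1) were placed on Ensembl release 115 gene models. All peaks lay within the chromosome lengths. An intron is the gap between merged protein-coding exons of the host, the shortest where genes overlap, and 23 members had none. Replicate top lists hold the 414 highest signals each. Shares have exact (Clopper-Pearson) 95% binomial intervals, densities exact Poisson intervals and medians order-statistic intervals; all treat candidates as independent and cover no replicate variation. No test between conditions applies to 1 group, and none was run across candidates. Location, overlap and motif steps were checked on simulated data. Python 3.11.15, numpy 2.4.6, pandas 2.3.3, scipy 1.17.1 and matplotlib 3.10.9 were used. The members, gene lists and motifs were chosen with earlier results of these data known. Named genes are hosts of the 25 highest members, of optimal members in both top lists, the 5 hosts with most members (7 with ties), and up to 4 hosts by signal in each list of 40 genes or fewer. Genes named for a motif, a nearby RNA gene, an inner start site, replicate support or the edge of a set were chosen after their values were seen. Alternatives changed the promoter and motif windows, summit, exons, introns, overlap and replicates used.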

Additional observations from a re-analysis of the deposited data

How the results depend on the processing

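Of 101 alternative values for 13 results, 82 stayed within the 95% interval of the value given above or, for counts, within 1.5 times it, and 19 moved; a stable value does not mean that the same regions were counted. The cause of the moves was not tested where the alternative's construction does not show it. Promoters of 2000 bp upstream to 500 bp downstream gave a median host intron of 948 bp, a first-intron share of 17.5%, a GAGAGA share of 11.5% over all members, and 21 members of both top lists (33 above), since only 46 optimal members were left. Promoters of 500 bp upstream to 100 bp downstream gave a first-intron share of 25.04%. With the longest intron of any transcript, the median was 964 bp, and the first-intron share was 51.6% for optimal members and 30.6% for all members, so the share of optimal members in first introns depends on how an intron is defined. Summits within 100 bp, or 50% of the peak covered, gave overlap with both replicates for 14.7% and 21.6% of members. GAGAGA within 50 bp occurred in 42.2% of optimal members and 6.69% of all, and within 200 bp in 73.4% and 21.6%. By construction, 0.486% of members were among the 207 strongest optimal peaks. The highest member of each host alone, an alternative chosen after seeing the data, put 1.25% of members in the optimal set. With either replicate's own list of 30000 candidates, the 414 highest signals of that list stood in for the optimal set. Members then numbered 7639 to 7785, and 0.899% to 0.943% of them were among those 414. The median intron was 848 to 903 bp for all members and 3411 to 3545 bp for these top members. First-intron shares were 21.4% to 22.9% and 27.1% to 31.9%, and GAGAGA shares 11.5% to 11.8% and 52.8% to 52.9%. Among the top members, TGACAG occurred in 11.4% to 15.3% and CTGCGTCTC in 12.9% to 20.8%. CTGCGTCTC was added after the data were seen, in all its settings. No paired analysis was possible because there was 1 group. Depth limits every count here in a way these lists do not show, and an unlisted region is not shown to be unbound.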
